A study of Homo sapiens with 14 samples.

Results

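Called RNA sites were examined in the transcripts of 10 glycolysis enzymes, GAPDH, ENO1, PKM, ALDOA, PGK1, LDHA, LDHB, TPI1, PFKL and PGAM1. The genes were taken by name, and a site belonged to one of them when it lay inside the GENCODE 29 gene on the gene's own strand (GRCh38). Of the 10 genes, 7 held a called site in at least 1 library, out of 5615 genes with a called site in the whole series. LDHA, TPI1 and PGAM1 held no call of any kind. The 7 genes held 16 distinct sites and 28 calls, of which 12 sites and 24 calls were C-to-U changes.

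The study sequenced total RNA from 293FT cells, a line derived from human embryonic kidney that carries the SV40 large T antigen, and asked whether a prime editor alters RNA away from its target. All titles carry the name hRNF2, and the labels give sorting of the top 15% of cells by fluorescence 40 h after transfection for every sample. The non-transfection libraries carry the same label, though their group name implies that they were not transfected. The groups analysed here were hA3A-BE3 (3 libraries), a Cas9 nickase joined to the cytosine deaminase APOBEC3A; PE3 (2 libraries, labelled replicates 2 and 3), a Cas9 nickase joined to a reverse transcriptase and used with a further nicking guide; and the controls Cas9, EGFP and non-transfection (3 libraries each, 9 in all). The sources do not say that replicates were separate cultures, so p-values measure only how these libraries vary, and that variation may be technical. The lists hold called sites and not expression, so markers of the cell line could not be checked in them. The target gene RNF2 held 1 called site, a G-to-A change (Q29Q), in both PE3 libraries and in no other. It had 100% of 9 reads in PE3 replicate 2 and 61.5% of 13 reads in replicate 3. With so few reads, a missing call in the other libraries cannot be told apart from low coverage.

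Glycolysis splits glucose into pyruvate in the cytosol and yields ATP and NADH, and lactate dehydrogenase then turns pyruvate into lactate. Its enzymes are made in large amounts in most dividing cells, so their mRNAs are among the abundant ones. APOBEC3A removes the amino group of cytosine in single-stranded nucleic acid, which turns C into U, and it is known to prefer a C that follows a U and sits in the loop of a short hairpin.

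The edited cytosines of the enzyme transcripts all followed a U. The 5 sites called in all 3 hA3A-BE3 libraries and the 2 called in a pair of them are shown as GENCODE transcript sequence, 5′ to 3′ with T for U, since the bases around the C are what these sites have in common. Capitals mark the edited C and the base before it.
GAPDH I120I: aaagggtcaTCatctctgccc
ENO1 I284I: agtccttcaTCaaggactacc
PKM F12F: ggactgcctTCattcagaccc
PKM 3' UTR: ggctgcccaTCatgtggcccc
PGK1 H125Y: cctccgcttTCatgtggagga
ALDOA 5' UTR: gcgttcctcTCggaacgcgcc
PGK1 5' UTR: tcggctcccTCgttgaccgaa
GAPDH, ENO1 and the 3' UTR site of PKM share the letters CATCA around the edited base, while PKM F12F and PGK1 H125Y share TTCAT.

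C-to-U calls in these transcripts were found in hA3A-BE3 libraries and in no other library. The hA3A-BE3 libraries held 5, 9 and 10 such sites in replicates 1, 2 and 3, a mean of 8.0 ± 2.65 (SD, n = 3). Each of the 9 control libraries and both PE3 libraries held 0. A site missing from a list may be unedited, uncovered or under the limits of the list, since every listed site has at least 2 mutated reads and an edited fraction of 5.02% or more, so 0 calls is not a level of 0. The glycolysis sites made up 0.200%, 0.176% and 0.155% of all C-to-U sites of hA3A-BE3 replicates 1, 2 and 3, so replicate 1 had the fewest glycolysis sites and the largest share. Replicate 1 also had the fewest C-to-U sites in all, 2499 against 5113 and 6446. Mapped bases per library, as inferred from the ratio of the depth columns, ran from 3.26 Gb (PE3 replicate 2) to 10.6 Gb (Cas9 replicate 3) and were 7.27, 5.87 and 8.87 Gb in hA3A-BE3 replicates 1, 2 and 3.

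**Figure D1:**
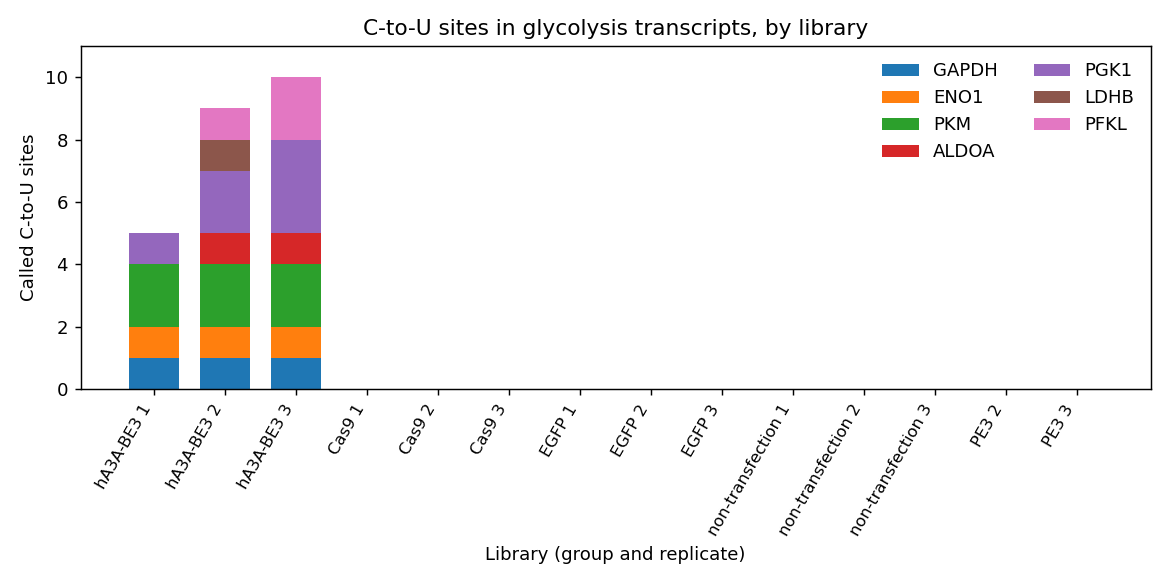
Number of called C-to-U sites (vertical axis) in the 7 glycolysis genes with a site, stacked by gene, for each of the 14 libraries (horizontal axis). The hA3A-BE3 libraries hold 5, 9 and 10 sites, and the 11 control and PE3 libraries hold 0.

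Among the single genes, GAPDH, ENO1, PKM and PGK1 carried more C-to-U sites with hA3A-BE3 than in controls. GAPDH and ENO1 each had 1 site in every hA3A-BE3 library, PKM had 2 in every one, and PGK1 had 1, 2 and 3 in replicates 1, 2 and 3. The differences were 1.00 for GAPDH and for ENO1, 1.58 for PKM and 1.53 for PGK1 on the scale of log2(sites + 1), higher in 3 of 3 libraries each (exact permutation test, two-sided, p = 0.00909, the lowest value possible with 3 and 9 libraries, Benjamini-Hochberg adjusted p = 0.0422 over 5615 genes). PFKL had 0, 1 and 2 sites (difference 0.86) and ALDOA 0, 1 and 1 (0.67), with an adjusted p of 0.202 by the same exact permutation test. LDHB had 1 site, in replicate 2 alone (0.33, exact permutation p = 0.5, adjusted p = 0.605). Over all genes tested, 21.5% (1209 of 5615) had more C-to-U sites by this rule and 0 had fewer. The 7 enzymes entered the table only through calls that hA3A-BE3 nearly always supplied, so 4 passing genes among them are a description and not a result about glycolysis. An adjusted call needs at least 1021 genes at the smallest p, and leaving out any library of hA3A-BE3 or of the controls left 0 genes passing, as did restricting the test to the 2191 genes that also held another kind of change.

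In the PE3 libraries none of the 10 enzymes carried a C-to-U site, and the same was true of the 9 controls. The difference was 0 for each of the 7 genes in the table (exact permutation p = 1). Over all 5615 genes 0.0% passed the adjusted threshold in PE3 by the exact permutation test, and 0 genes had an unadjusted p under 0.05. The smallest p that 2 against 9 libraries can give is 0.0364. An adjusted call would need most of the 5615 genes at that value, so nothing is read from the 0.0% that passed. PE3 replicate 2 had the fewest mapped bases of all libraries. The PE3 and hA3A-BE3 comparisons share their 9 control libraries.

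GAPDH, which oxidises glyceraldehyde 3-phosphate and makes the NADH of glycolysis, held the most strongly edited site. It lay in exon 6 of 9 on chromosome 12, position 6537133 (plus strand, coding), at the third base of an isoleucine codon, and left the protein unchanged (I120I). The edited level was 63.2% in replicate 1 (1007 covering reads, 95% Wilson interval 60.1% to 66.1%), 74.8% in replicate 2 (803 reads, 71.7% to 77.7%) and 77.6% in replicate 3 (1075 reads, 74.99% to 79.97%). Replicate 1 was below the others, and its interval did not overlap theirs. These intervals cover counting error only and may be too narrow for it, since reads without molecular identifiers are not independent molecules. The mean was 71.9% ± 7.66 (SD, n = 3), which ranked 2 among the 1057 C-to-U sites that every hA3A-BE3 library held and no library of another group did. Among those outside the enzymes, the sites with the levels closest to it over the 3 libraries were PIGX H153Y (within 8.18 percentage points in every library), TTF2 I1039I (within 14.8) and THOC5 R683C (within 14.8). The covering reads of these sites were not compared with those of GAPDH, so counting error in their levels is not known here.

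In GAPDH the call fell on 1 cytosine among several with similar neighbours. The bases after the edited C spell a further ATC codon, isoleucine 121, whose C lies 3 bases downstream and also follows CAT. That cytosine was not called in any library. Neither were the 3 other UpC cytosines within 20 bases, at -3, 5 and 14 bases from the site. Of the 135 UpC cytosines in the 1875-base transcript, and of its 17 ATC isoleucine codons, only that of I120I was called. GENCODE lists 62 genes named as GAPDH copies, and 100 named as copies of any of the 10 enzymes, with 0 calls in all of them. The placing of reads from copies is not given in the labels, so levels in GAPDH carry that uncertainty. At the GAPDH site the covering reads were 62.4% to 63.1% of the larger depth that the lists also give for each site, against a median of 74.1% over the sites called in all 3 libraries and 93.2% to 94.5% at the ENO1 site. The share was similar at the PKM 3' UTR site (63.5% to 66.6%), the PGK1 5' UTR site (64.1% to 65.3%) and PFKL I165I (64.8%). What sets that share is not stated in the labels, and its part in the levels was not tested.

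PGK1, which passes a phosphate from bisphosphoglycerate to ADP and so makes ATP, held 3 C-to-U sites, all at low levels. The site in exon 4 of 11 on the X chromosome, position 78114116 (plus strand), turned a histidine codon into a tyrosine codon (H125Y). Its level was 6.70%, 5.91% and 7.25% in replicates 1, 2 and 3, over 388, 372 and 510 reads, a mean of 6.62% ± 0.674 (SD, n = 3). This was the only change of an amino acid in the enzymes that was called in every hA3A-BE3 library, and the 3 values lie within each other's Wilson intervals. A 5' UTR site in exon 1, position 78104297, had 5.61% in replicate 2 (962 reads, Wilson interval 4.33% to 7.25%) and 6.67% in replicate 3 (1455 reads, 5.496% to 8.07%). It was not called in replicate 1, and both values lie close to the lower limit of the lists. L414L, position 78125818, was called in replicate 3 alone, at 6.09% (312 reads, Wilson interval 3.93% to 9.31%). PGK1 was also the one enzyme with calls in control cells. These were A-to-G changes, the kind made by adenosine deaminases of RNA, at 2 positions of the 3' UTR in non-transfection replicate 2 (29.4% of 17 reads and 12.5% of 16) and at 1 intronic position in non-transfection replicate 3 (3 of 15 reads).

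ENO1, the enolase that makes phosphoenolpyruvate, held the second highest level. Its site lay in exon 8 of 12 on chromosome 1, position 8865298 (minus strand, coding), again at the third base of an isoleucine codon (I284I). Edited reads made up 34.4% in replicate 1 (1381 reads, Wilson interval 31.9% to 36.9%), 46.6% in replicate 2 (1076 reads, 43.6% to 49.5%) and 47.4% in replicate 3 (1502 reads, 44.9% to 49.9%), a mean of 42.8% ± 7.28 (SD, n = 3). As in GAPDH, replicate 1 was the low library, by 12.2 and 13.01 percentage points against replicates 2 and 3, where GAPDH differed by 11.7 and 14.4. ENO1 I284I ranked 36 of the 1057 sites by mean level. The phenylalanine codon just before it ends in a UpC too, and that cytosine, 3 bases upstream, was not called.

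PKM, the pyruvate kinase that makes pyruvate and ATP, held the other pair of sites called in all 3 libraries. F12F, at the third base of a phenylalanine codon in exon 2 of 11 (chromosome 15, position 72219062, minus strand), had 7.19%, 12.7% and 11.7% in replicates 1, 2 and 3, over 765, 668 and 901 reads, a mean of 10.5% ± 2.94 (SD, n = 3). Replicate 1 lay below the others there as well, with a Wilson interval of 5.57% to 9.24% against 10.4% to 15.5% and 9.72% to 13.9%. The 3' UTR site in the last exon, position 72199444, had 7.40%, 8.84% and 10.7%, over 365, 294 and 440 reads, a mean of 8.97% ± 1.65 (SD, n = 3). Here the intervals of the libraries overlapped. A G-to-A change in an intron was called once, in hA3A-BE3 replicate 1.

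By mean level the 5 sites called in every hA3A-BE3 library ran from GAPDH I120I through ENO1 I284I, PKM F12F and the PKM 3' UTR site to PGK1 H125Y. GAPDH stood above ENO1 by 29.1 ± 0.985 percentage points (SD of the difference, n = 3) and ENO1 above PKM F12F by 32.3 ± 4.48, in 3 of 3 libraries each. The PKM sites differed by 1.55 ± 2.10 points, with the same sign in 2 of 3 libraries, and so were not apart. The PKM 3' UTR site exceeded PGK1 H125Y by 2.35 ± 1.45 points in 3 of 3 libraries. The gap between GAPDH and ENO1 varied far less than either level did. These orders compare levels within libraries and were not tested.

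The remaining enzymes held sites called in 1 or 2 libraries. In ALDOA, the aldolase that splits fructose 1,6-bisphosphate, a 5' UTR site of a GENCODE transcript variant (chromosome 16, position 30065810, plus strand) had 33.3% in replicate 2 and 7.55% in replicate 3, from only 24 and 53 reads, with Wilson intervals of 17.97% to 53.3% and 2.97% to 17.9%. The intervals did not overlap but nearly met, and the levels rest on 8 and 4 mutated reads. PFKL, the liver-type phosphofructokinase that commits sugar to the pathway, held 3 sites on chromosome 21 (plus strand), each in 1 library. They were I165I at position 44313045 with 11.4% of 35 reads in replicate 3, F595F at 44324625 with 8.57% of 35 reads in replicate 2, and S645L at 44325209 with 5.45% of 55 reads in replicate 3. S645L, a serine-to-leucine change, is the other amino acid change in the enzymes, and its interval of 1.87% to 14.9% from 3 mutated reads is wide. LDHB, a lactate dehydrogenase subunit, held I38I (chromosome 12, position 21654558, minus strand) with 5.79% of 1934 reads in replicate 2 alone, the deepest and one of the lowest calls of the set. Its Wilson interval of 4.84% to 6.92% spans the lower limit of the lists.

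LDHA, the other lactate dehydrogenase subunit, TPI1, which interconverts the triose phosphates, and PGAM1, which moves the phosphate of 3-phosphoglycerate, held no call. Their reference transcripts contain 134, 75 and 114 UpC cytosines and 10, 10 and 8 ATC isoleucine codons. The lists do not give read depth where nothing was called, so editing under the limits cannot be told apart from low coverage there.

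Calls were rare among the cytosines that shared the base before the site. The reference transcripts of the 10 enzymes hold 1398 UpC cytosines, and 11 of them (0.787%) were called in any hA3A-BE3 library. The remaining site, in ALDOA, lies in another transcript variant. All 12 edited cytosines had a purine after them, 8 an A and 4 a G, whereas 40.3% of UpC cytosines in the reference transcripts do. Over all 10184 exonic C-to-U sites of hA3A-BE3 cells a purine followed in 82.4% and a U preceded in 95.3%. Among the 1043 of them called in all 3 libraries these shares were 89.3% and 99.1%. At -2 the enzymes had A at 6 of 12 sites, U at 3 and C at 3, and over all exonic sites A stood there in 52.4%. The letters CAUC ended in the edited base at 5 of 12 sites. That share was 28.3% over all exonic sites and 45.3% over those called in all 3 libraries. Of the 147 cytosines that end CAUC in the 10 transcripts, 5 were called.

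Most calls left the proteins unchanged. Of the 12 sites 9 were coding, 2 lay in 5' UTRs and 1 in a 3' UTR. The coding sites were 7 synonymous and 2 missense changes, and no stop codon was made. Among the 689 coding UpC cytosines of the 10 transcripts, a change to U would be synonymous at 429 (62.3%), missense at 240 (34.8%) and a stop at 20 (2.90%). Over all coding hA3A-BE3 sites 49.6% were synonymous, 35.5% missense and 14.8% stops. Among those called in all 3 libraries the shares were 58.1%, 31.0% and 10.9%. Isoleucine ATC codons took 4 of the 9 coding sites, in GAPDH, ENO1, LDHB and PFKL, out of 150 such codons in the 10 transcripts. Such codons took 29.2% of all coding hA3A-BE3 sites and 40.8% of those called in all 3 libraries. With so few sites the shares of the enzymes carry wide counting error and are a description.

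The cytosine was predicted to sit in a hairpin loop at each of the 5 sites called in every hA3A-BE3 library. In minimum free energy folds of the 41 bases around a site, ENO1 I284I took the last position of a 4-base loop closed by 7 base pairs, and the ALDOA 5' UTR site had the same geometry. PGK1 H125Y lay at position 4 of a 6-base loop on 7 pairs, the PKM 3' UTR site at position 5 of a 7-base loop on 6 pairs, GAPDH I120I at position 5 of a 7-base loop on 4 pairs, and PKM F12F at position 5 of an 8-base loop on 3 pairs. Pairs are counted from the loop outward to the first unpaired base, beyond which some folds, that of GAPDH among them, paired again. By that count GAPDH, the site with the highest level, did not have the longest stem. Whole stems were not compared. The 12 sites include the ALDOA site, which lies in another transcript variant than the reference. Of the 12, 7 lay in a loop (58.3%), ALDOA among them, against 544 of 1378 (39.5%) uncalled UpC cytosines of the reference transcripts. Among the 1043 exonic sites called in all 3 libraries 79.5% did, a share to set only beside the 5 enzyme sites called in all 3. The share over all exonic hA3A-BE3 sites was not computed. With 21 bases folded, 10 of the 12 lay in a loop, including the 5 called in every library. The uncalled UpC cytosines then had 46.7% and the exonic sites called in all 3 libraries 89.5%. With 61 bases 7 of the 12 did, including 4 of the 5 called in every library, against 26.5% and 69.8% in the same order. Folds of short windows are predictions and were not measured here.

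The enzyme sites called in every hA3A-BE3 library stood out by coverage more than by level. Calls at the ALDOA and PFKL sites, which fewer libraries held, had only 24 to 55 covering reads. The other sites that fewer libraries held were deep as well. LDHB I38I had 1934 reads, the PGK1 5' UTR site 962 and 1455, and PGK1 L414L 312. The 5 sites called in every hA3A-BE3 library had median covering reads of 365 to 1381, above 97.4% to 99.9% of the 1057 such sites, whose median was 61. Their mean levels had a median of 10.5%, against 13.9% over the 1057. Of the 42 sites with a median of at least 300 reads, a limit chosen after the values were seen, GAPDH I120I ranked 1 by level and ENO1 I284I ranked 3, and the median level was 10.2%. With 5 of 12 glycolysis C-to-U sites called in all 3 libraries (41.7%, against 10.4% of all 10353 hA3A-BE3 sites), the calls also had a median of 589 covering reads against 49 over all hA3A-BE3 C-to-U calls, and the part of coverage in this was not tested. Of the 7 enzymes among the 5615 genes with a call, 4 had a site among these 1057, where 15.7% of the 5615 did, and 7 had a C-to-U site in at least 1 hA3A-BE3 library, where 83.3% did. LDHA, TPI1 and PGAM1 lie outside both counts, and since hA3A-BE3 calls put the enzymes among these genes, nothing is read from the shares. Replicate 1 was the lowest library at 4 of the 5 enzyme sites and at 65.3% of the 1057.

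**Figure D2:**
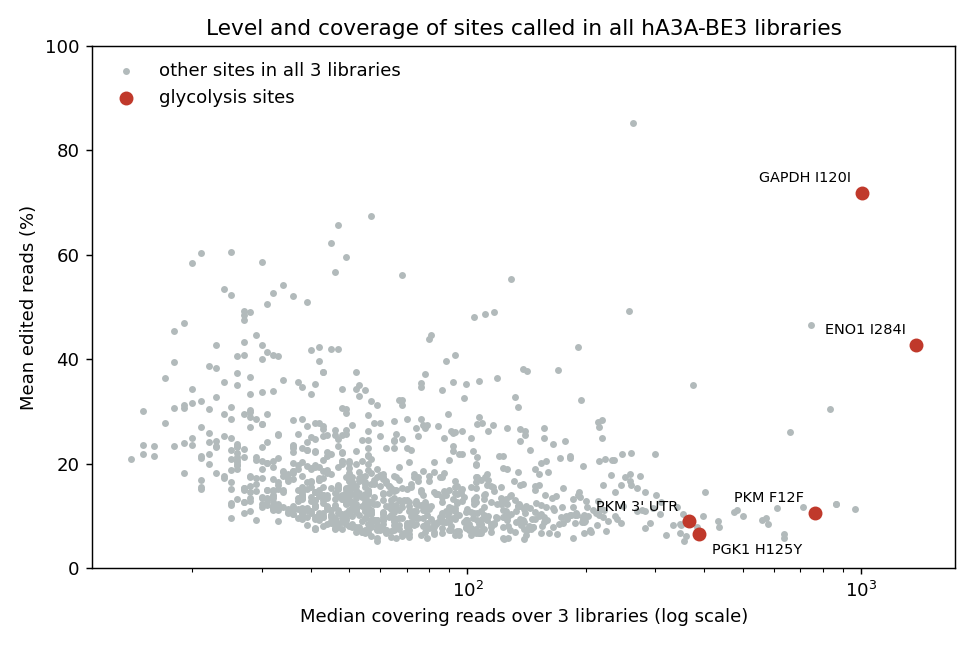
Mean edited reads in percent (vertical axis) against the median covering reads over the 3 hA3A-BE3 libraries (horizontal, log scale) for the 1057 C-to-U sites that each of these libraries held and no other library did. The 5 glycolysis sites (large points) lie at the deeply covered end, with GAPDH I120I at 71.9% and ENO1 I284I at 42.8% above most others there.

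Other genes of the pathway came from a pair of lists, 20 isoenzymes and remaining enzymes and 19 regulators, transporters and pyruvate-handling genes. Of the 39 genes 14 held a called site, 12 a C-to-U site in hA3A-BE3 cells and 4 a C-to-U site in all 3 libraries. Those 4 genes, GPI, PFKM, DLAT and PDK3, had more C-to-U sites than controls (adjusted exact permutation p = 0.0422 each), 0 genes of the lists had fewer, and the background is the 21.5% of all genes given above. PFKM and PDK3 had calls in hA3A-BE3 libraries alone, so they were tested only because they were high there, and these 4 calls too were lost on leaving out any library. GPI, which interconverts glucose 6-phosphate and fructose 6-phosphate, held 5 C-to-U sites led in recurrence by S367F at 5.67% ± 0.677 (SD, n = 3). PFKM, the muscle-type phosphofructokinase, held I260I at 19.3% ± 6.46. DLAT, a pyruvate dehydrogenase subunit, held I159I at 35.3% ± 4.87, and PDK3, a kinase that restrains that complex, a 3' UTR site at 19.7% ± 4.63 (SD, n = 3 each). HK1, a hexokinase that traps glucose in the cell, held 3 sites in 1 library each, at 8.16% to 16.3%. The single pathway gene with C-to-U calls outside hA3A-BE3 was ENO3, with 3 calls in control libraries and none in hA3A-BE3, and it was named after its values were seen.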

How the data were processed

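Sites called in total RNA were compared across 14 libraries grouped by their treatment labels. The submitters' processing notes name BWA 0.7.17 and, as genome builds, GRCh38 and hg38. No caller or filter is named in them or in the labels. The authors deposited a headerless list per library with counts of reads (covering, per base, mutated, and a larger depth), each base's fraction of those covering reads, the edited fraction, and a signal equal to the larger depth divided by a library constant, read here as Gb of mapped bases. Strand came from comparing the edited fraction with each base's fraction on the plus strand. In all, 17541 of 17541 exonic sites matched the GENCODE 29 transcript base. Each site took the gene of the best region (coding first, then UTRs with the 3' UTR ahead, other exons and introns), with APPRIS principal transcripts first. Numbering counts from the first codon.

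Sites per gene were compared as log2(sites + 1) by two-sided exact permutation tests (220 assignments for 3 against 9, 55 for 2 against 9, with the smaller tail doubled). Benjamini-Hochberg adjustment at 0.05 covered all 5615 genes. The test was also run on simulated counts with a shared rate in the treated libraries. The real libraries differ in their number of sites, so that run does not check the calls made here. Folds used ViennaRNA 2.7.2, the rest Python 3.11.15 and SciPy 1.17.1. Members, lists and rules were chosen with earlier results of these data known. All sites of the 10 enzymes are accounted for, sites in at least 2 hA3A-BE3 libraries are named with every value, up to 5 other pathway genes are named by recurrent sites and then calls, and 3 genes by closeness to the top site's levels. Alternatives were limits on reads, level and mutated reads, other scales, strands and gene sets, single control groups, a replicate block and leaving out libraries.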

Additional observations from a re-analysis of the deposited data

Results flagged for a closer look

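Among the 9 control libraries, non-transfection replicate 2 held 2 sites in the glycolysis genes, both A-to-G changes in the 3' UTR of PGK1, against 1 in non-transfection replicate 3 and 0 in the other 7, which set it apart from the rest by its gap to the nearest library. Chance alone sets apart about 1 in 20 groups of continuous values by this gap, a rate that need not hold for tied counts as low as these. Within the enzyme genes, a change other than C-to-U was called once in hA3A-BE3 cells. It was a G-to-A site in an intron of PKM in replicate 1, at 10.0% of 30 reads (3 mutated reads). No control library held that site.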

How the results depend on the processing

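The number of genes passing in hA3A-BE3, 1209 (21.5% of 5615), fell to 590 with at least 50 covering reads and to 644 with at least 5 mutated reads. Fewer genes were tested there, so the shares were 19.4% of 3039 and 19.9% of 3235, and the 4 enzymes still passed. The number of genes passing was 0, and 0 for the enzymes, at an edited fraction of at least 10% (549 genes at an unadjusted exact permutation p under 0.05). Both numbers were also 0 among genes that held another kind of change too (399) and with the replicate block (1220). Against each control group alone they were 0 as well (0 unadjusted, since 3 against 3 cannot go below 0.1). At that 10% limit GAPDH and ENO1 kept a difference of 1.00 (adjusted exact permutation p = 0.0672), while PKM had 0.86 (0.274) and PGK1 0.00 (1.0). The block permutes within the numbers of the titles, so its smallest p is 0.0313 and an adjusted call would need most genes at that value. Its 0 therefore does not show that blocking removed the differences. The numbers were not shown to pair the libraries. Deviations at 138 shared A-to-I sites correlated at -0.168 to 0.145 over 18 same-numbered pairs. Of 12 libraries, 3 correlated best with their own number. Without any 1 library it was 0 to 0 genes and 0 to 0 enzymes (1230 to 2150 genes at an unadjusted p under 0.05), because fewer assignments raise the smallest p. The glycolysis sites per hA3A-BE3 library fell to 3.67, and those called in all 3 libraries to 2, at an edited fraction of at least 10%; without 1 hA3A-BE3 library they ran from 7 to 9.5 and from 5 to 7. Sites in a predicted loop numbered 10 with 21 bases folded. Without 1 library the means ran from 69.0% to 76.2% for GAPDH I120I, 40.5% to 46.98% for ENO1 I284I, 9.42% to 12.2% for PKM F12F, 8.12% to 9.76% for its 3' UTR site and 6.31% to 6.98% for PGK1 H125Y. The PE3 count was 0 in all 25 alternatives run, which says nothing about stability, since the smallest possible p was 0.0182 to 0.2 before adjustment. Levels near 5% are limited by the lists' lower limit, and those from under 60 reads by depth.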
